A study of Homo sapiens with 18 samples.

Results

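Axon guidance ligands and receptors were described across the treatment groups of a ventral forebrain organoid study. The set was defined by gene symbol: semaphorins of classes 3 to 7, plexins, neuropilins, ephrins, Eph receptors, Slits, Robos, netrins 1 to 5, the UNC5 receptors and DCC. The rule matched 69 of the 53853 rows of the gene table, namely 35 ligands and 34 receptors. They fell into 20 semaphorins, 9 plexins, 2 neuropilins, 8 ephrins, 14 Eph receptors, 3 Slits, 4 Robos, 4 netrins and 5 netrin receptors. Of these, 67 passed the filter on low counts and were tested. EPHA1 and ROBO4 did not pass and stayed between 0 and 0.25 TPM (transcripts per 1000000, a level scaled for gene length) in all 18 libraries.

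The organoids are neural tissues grown in suspension from 1 human embryonic stem cell line, H9, and patterned toward ventral fates from day 10 with SHH (100 ng/mL) and purmorphamine (1 µM), an agonist of the same pathway. From day 83 they were dosed daily for 1 week and then given a final dose of 1 h. The 6 groups of 3 libraries were cocaine + inhibitor, cocaine, dopamine + inhibitor, dopamine, control + inhibitor and control. Cocaine, a blocker of monoamine transporters, and dopamine, a neurotransmitter, were given at 1 µM. All 6 groups, the controls included, received 100 µM ascorbic acid, itself an antioxidant. The inhibitor of reactive oxygen species was acetylcysteine at 100 µM, added to the medium before dosing. Within each group, libraries carry the numbers 1 to 3 by deposit order, and a number pairs nothing between groups. Whether the libraries of 1 group were grown as separate cultures is not stated in the labels. P-values therefore reflect library-to-library spread, which may be smaller than the spread between separate cultures.

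Guidance cues steer the growth cone, the moving tip of a growing axon, by attraction or repulsion. Secreted class 3 semaphorins act through complexes of a neuropilin and a plexin, and most membrane-bound semaphorins bind plexins directly. Slits repel through Robos, netrin-1 attracts through DCC and repels through UNC5 receptors, and ephrins and Eph receptors signal in both directions between touching cells. In the developing forebrain the same families also guide the migration of interneurons from ventral to dorsal regions.

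Total reads ran from 23789195 to 30327891 per library. Of the neuron markers, STMN2, a microtubule regulator of growing axons, was at 1526 TPM or more in every library. Of the radial glia and astrocyte markers, SOX2 was at 325 TPM or more and VIM at 810 TPM or more. Of the ventral genes, DLX1 was at 22.5 to 86.0 TPM, while NKX2-1, which defines the medial ganglionic eminence, was at 0.10 to 4.10 TPM and LHX6, a factor of the interneurons born there, at 0.27 to 1.47 TPM, both low. Of 10 endothelial markers, 6, namely CDH5, EMCN, FLT1, PECAM1, TIE1 and VWF, were under 1 TPM in every library. Of the rest, CLDN5 was at 4.28 to 16.2 TPM, and KDR, TEK and ESAM reached at most 2.94, 2.77 and 1.15 TPM. Each library differed from the others of its group by more than sampling noise. Cocaine + inhibitor 1 and 2 stood farthest from their own group, with 12 and 10 guidance genes far from the level in the group's other libraries, and cocaine + inhibitor 2 also differed in its markers, as given with the results it touches.

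Nearly the whole guidance repertoire was expressed, and its levels spanned several orders of magnitude. On the TPM scale the highest mean over the 18 libraries was that of EFNB3, a transmembrane ephrin that acts as a midline barrier to corticospinal axons in mice, at 236 TPM. Next came SLIT1, a secreted repellent, at 180 TPM and EFNB1, another transmembrane ephrin, at 162 TPM. SEMA6B, a transmembrane semaphorin that binds class A plexins, averaged 149 TPM. The highest receptors were PLXNA1 and ROBO1, which serve class 3 semaphorins and Slits, at 148 TPM each, and EPHB2, a receptor of B-type ephrins, at 106 TPM. ROBO2 averaged 91.4 TPM and the netrin receptor DCC 55.0 TPM. Among the ligands, EFNA3, a lipid-anchored ephrin, averaged 91.7 TPM, SEMA5B 94.1 TPM and NTN1, the midline attractant netrin-1, 73.6 TPM.

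The leading members of the remaining families were lower. SEMA4C, a ligand of PLXNB2, averaged 66.8 TPM, and PLXNB2 itself 69.2 TPM. EPHA4, a receptor of both ephrin classes, averaged 63.5 TPM. SEMA3C, a secreted semaphorin, averaged 40.5 TPM. SEMA7A, the lipid-anchored semaphorin, averaged 30.8 TPM, and its receptor PLXNC1 36.6 TPM. PLXND1, the receptor of SEMA3E, averaged 8.22 TPM and SEMA3E itself 5.55 TPM. At the low end NTN5 averaged 0.902 TPM, and SEMA3G 0.123 TPM on a mean of 4.33 reads.

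**Figure D1:**
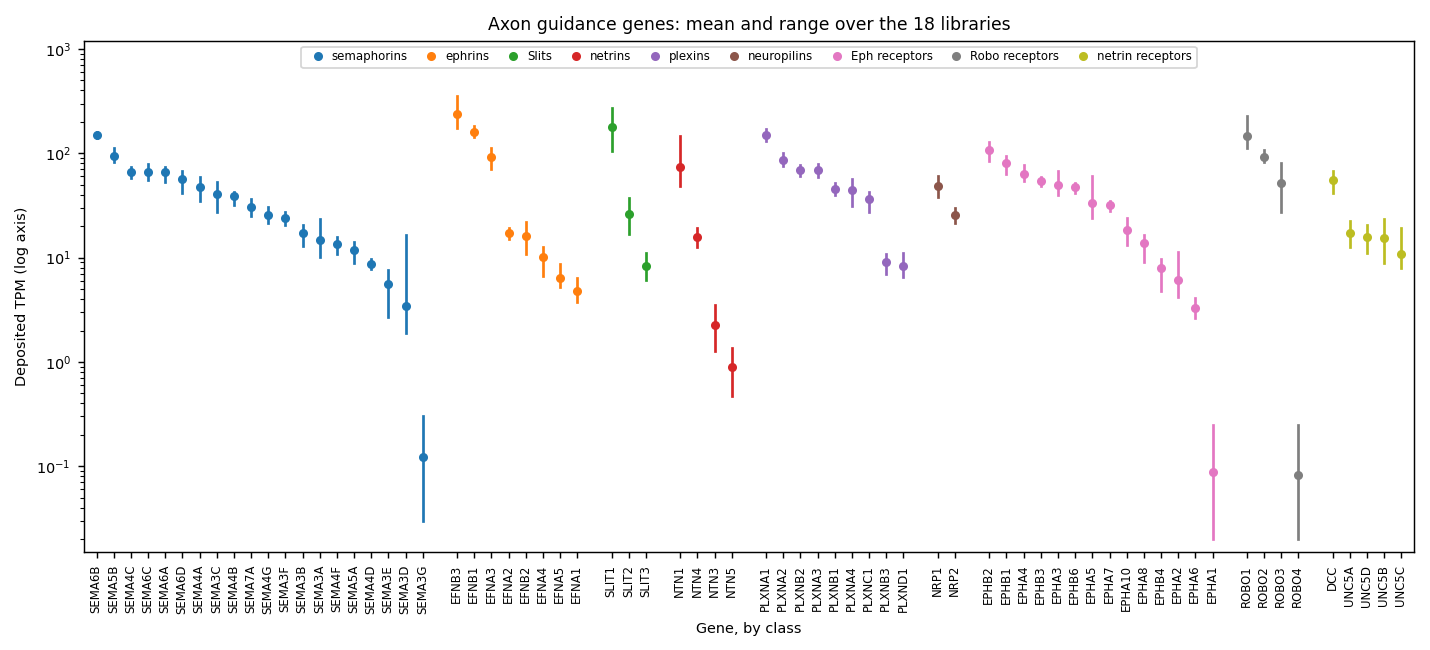
Deposited TPM of the 69 axon guidance genes on a log axis, grouped by class. Points are means and lines the lowest to the highest of the 18 libraries, with 0 drawn at the lower end; EFNB3 is highest at a mean of 236 TPM, and SEMA3G, EPHA1 and ROBO4 are the only genes that average under 0.5 TPM.

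With cocaine, guidance receptors of 4 families and 3 transmembrane semaphorins fell to between 0.722 and 0.836 of the control level, and 1 ephrin rose. Cocaine against control combines 1 week of daily doses with a final dose of 1 h, and the design cannot tell their effects apart. In all, 10 of the 67 tested genes (14.9%) fell and 1 (1.49%) rose in edgeR's quasi-likelihood test with Benjamini-Hochberg adjustment, called at an adjusted p under 0.05. Over all 18913 genes tested, 2.59% fell, 1.73% rose and 4.33% were called in either direction. The genes that fell were the netrin receptors UNC5A and UNC5D, the neuropilin NRP1, the plexins PLXNA4 and PLXNC1, the Eph receptors EPHB1 and EPHA10 and the transmembrane semaphorins SEMA4F, SEMA4G and SEMA6D. EFNB1, an ephrin, rose. On GRCh38.p14, UNC5A lies at chr5:176810559-176880898, NRP1 at chr10:33177493-33334667, SEMA4G at chr10:100969504-100985616 and EFNB1 at chrX:68829021-68842160. The median log2 fold change was -0.10 over the 67 genes and 0.0055 over all genes tested, and 46 of the 67 were negative.

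Among the ligands, SEMA4G, a class 4 transmembrane semaphorin, was at 25.3, 23.3 and 21.6 TPM with cocaine, against 30.5, 28.4 and 30.5 TPM in the controls. SEMA6D, which signals through PLXNA1, was at 49.2, 49.7 and 44.8 TPM with cocaine and at 66.7, 61.6 and 65.5 TPM in the controls. In both genes every cocaine library lay below every control. Their log2 fold changes were -0.31 (SE 0.07, adjusted p = 0.0275) for SEMA4G and -0.39 (SE 0.09, adjusted p = 0.0286) for SEMA6D. SEMA4F stood at 12.9, 12.6 and 10.9 TPM with cocaine, against 15.3, 13.8 and 15.7 TPM in the controls, and the groups again did not overlap (log2 fold change -0.26, SE 0.07, adjusted p = 0.046). EFNB1, whose loss disturbs the sorting of cells at tissue boundaries, was at 167, 180 and 176 TPM with cocaine and at 156, 152 and 149 TPM in the controls. Every cocaine library lay above the controls, and the change was the smallest in size of the 11 (log2 fold change 0.24, SE 0.06, adjusted p = 0.0328).

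Among the receptors, UNC5A, a netrin-1 receptor of repulsion, was at 16.4, 14.4 and 13.2 TPM with cocaine, against 22.2, 20.3 and 20.3 TPM in the controls. The groups did not overlap, and the fold change was 0.722 (log2 -0.47, SE 0.09, adjusted p = 0.0198). UNC5D, a member of the same family that also binds the adhesion protein FLRT2, was at 14.1, 12.4 and 11.2 TPM with cocaine and at 17.4, 17.9 and 16.4 TPM in the controls. NRP1, the co-receptor that class 3 semaphorins share with the growth factor VEGF-A, was at 45.1, 45.5 and 37.9 TPM with cocaine and at 60.1, 58.1 and 58.5 TPM in the controls. Both were below the controls in every library, with fold changes of 0.750 for UNC5D (adjusted p = 0.0236) and 0.749 for NRP1 (adjusted p = 0.0211). NRP2, the other neuropilin, had a log2 fold change of -0.11 (adjusted p = 0.543), and the difference between the 2 neuropilins was not tested.

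PLXNA4, which transduces SEMA3A and class 6 semaphorins, was at 39.8, 33.6 and 31.1 TPM with cocaine, against 54.5, 45.5 and 47.8 TPM in the controls. PLXNC1 was at 34.4, 32.3 and 27.2 TPM with cocaine and at 41.4, 37.8 and 39.7 TPM in the controls. Both sets of libraries were fully separated, with log2 fold changes of -0.46 (SE 0.12, adjusted p = 0.0415) for PLXNA4 and -0.30 (SE 0.08, adjusted p = 0.047) for PLXNC1. EPHB1, a receptor kinase that turns axons at the optic chiasm in mice, was at 70.9, 69.8 and 63.3 TPM with cocaine, against 89.3, 93.5 and 90.8 TPM in the controls. EPHA10, an Eph receptor without kinase activity, was at 17.0, 15.2 and 14.4 TPM with cocaine and at 24.1, 22.8 and 19.5 TPM in the controls. Cocaine libraries were below controls in each case, and the log2 fold changes were -0.38 (SE 0.08, adjusted p = 0.0259) for EPHB1 and -0.47 (SE 0.11, adjusted p = 0.0311) for EPHA10.

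**Figure D2:**
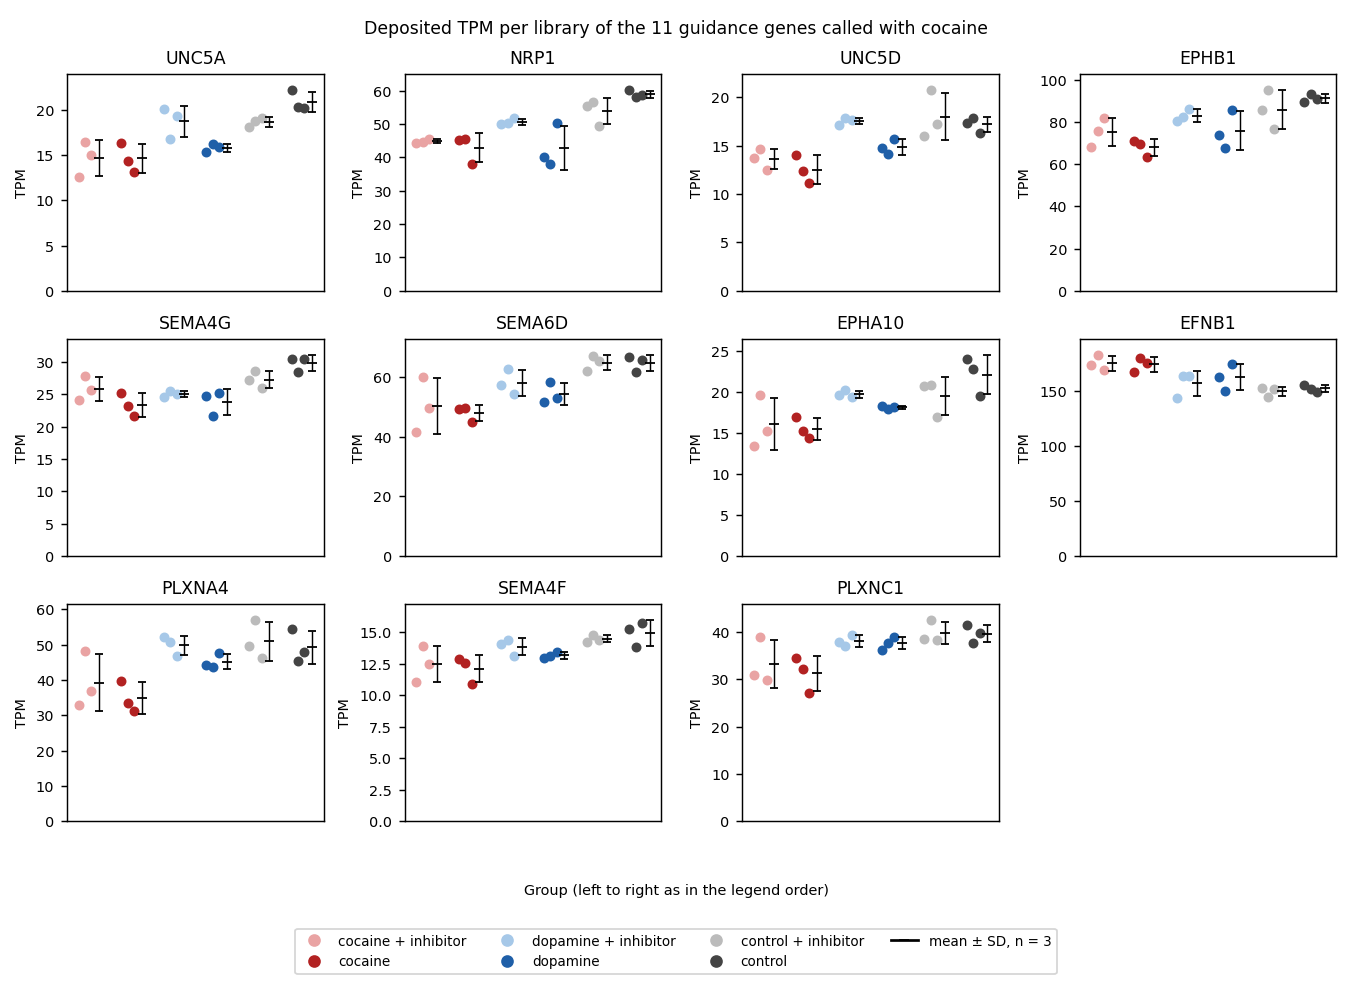
Deposited TPM per library of the 11 guidance genes called with cocaine against control, each panel from 0. Points are libraries, bars the mean ± SD of 3, and groups run from cocaine + inhibitor at the left to control at the right; the cocaine libraries lie below the controls in 10 panels and above them for EFNB1.

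The threshold divided a continuous series of genes. Just inside it stood PLXNC1 and SEMA4F, and just outside PLXNA2 (adjusted p = 0.0543), EPHA2 (0.0571), SEMA3E (0.0596), NTN3 (0.0605) and SEMA4A (0.0675). EPHA2, an Eph receptor of epithelial and progenitor cells, was at 8.36, 7.57 and 11.3 TPM with cocaine and at 4.18, 7.12 and 5.00 TPM in the controls. Its log2 fold change of 0.79 (SE 0.23) was positive, and the groups did not overlap. NTN3 was at 1.82, 2.36 and 1.28 TPM with cocaine, against 2.62, 3.53 and 3.36 TPM in the controls. PLXNA2, a receptor of class 3 and class 6 semaphorins, was at 76.3, 78.5 and 79.9 TPM with cocaine and at 95.3, 92.5 and 100.5 TPM in the controls. In both genes every cocaine library was below every control, at log2 fold changes of -0.76 (SE 0.23) for NTN3 and -0.25 (SE 0.07) for PLXNA2. SEMA3E, the secreted ligand of PLXND1, was at 4.13, 5.18 and 2.67 TPM with cocaine and at 6.62, 6.92 and 5.91 TPM in the controls. SEMA4A was at 46.0, 42.7 and 34.6 TPM with cocaine, against 57.2, 55.4 and 56.8 TPM in the controls. Cocaine 3 was the lowest cocaine library for both of these genes, as it was for every guidance gene called lower with cocaine. Neither gene's cocaine libraries overlapped the controls.

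Across the set, 26 genes had every cocaine library below every control in TPM and 4 had every one above, against 20.9% below and 11.4% above of all genes tested. At an unadjusted p under 0.05 there were 23 genes (34.3%), 19 of them lower, against 23.1% of all genes.

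The calls depended on single libraries. Leaving out cocaine 2, cocaine 3, control 1 or control 2 left 0 guidance genes called, and leaving out control 3 left 4, UNC5A, EPHA10, UNC5D and NRP1, while 12 were called without cocaine 1. Over all genes, those removals left at most 1 call in the first 4 cases and 226 without control 3. Reads of the opposite strand cannot be separated, since no strand setting is given in the sources used here, and SEMA3B, SEMA3F, SEMA6A, SLIT1 and UNC5B, which have antisense partners, are uncertain for that reason.

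Markers of cell types moved in the same comparison. The summed level of 11 neuron markers was 6328 to 7181 TPM with cocaine, against 7678 to 8247 TPM in the controls, and MAPT and DCX fell. The 13 interneuron and ventral forebrain markers summed to 549 to 795 TPM with cocaine and 1003 to 1135 TPM in the controls, with 4 of 13 lower: SLC32A1, DLX6, CALB2 and GAD2. Cell cycle genes summed to 508 to 821 TPM with cocaine and 385 to 425 TPM in the controls, with 5 of 14 higher. Radial glia and astrocyte markers summed to 2659 to 2973 TPM with cocaine and 2434 to 2529 TPM in the controls, with VIM higher. Choroid plexus markers summed to 296 to 1059 TPM with cocaine and 142 to 280 TPM in the controls, with AQP1 higher. Of these, TTR weighed heavily, averaging 467 TPM with cocaine, 200 TPM with dopamine and 38.9 TPM in the controls. With cocaine 7 of the 10 choroid plexus markers had a positive fold change, while PRLR, TRPM3 and SLC4A10 averaged below the controls in TPM. In cocaine 1, 2 and 3 the neuron sum was 7181, 6761 and 6328 TPM and the interneuron sum 795, 720 and 549 TPM. The cell cycle sum in these libraries was 508, 624 and 821 TPM. Cocaine 3, the lowest cocaine library for every guidance gene called lower, was farthest from the controls in each. In the choroid plexus sum cocaine 1 was farthest. The endothelial markers, of a cell type that is also known for NRP1, summed to 9.93 to 19.8 TPM with cocaine. In the controls they summed to 9.30 to 13.1 TPM, and none of the 6 tested was called. CLDN5 was the largest part of these sums, averaging 12.6 TPM with cocaine and 7.95 TPM in the controls. RGS5 of the pericyte list was higher with cocaine, and MBP of the oligodendrocyte list and EMX1 of the dorsal forebrain list were lower. No marker of the microglia, posterior, floor and roof plate, or pigment and eye lists was called with either drug. The 10 posterior markers, all HOX genes, summed to 36.8, 352 and 171 TPM with cocaine and 83.9, 23 and 138 TPM in the controls. With dopamine they summed to 25.7, 49.4 and 15.1 TPM, and each drug's libraries overlapped the controls. Their median log2 fold change was 1.21 with cocaine and -3.04 with dopamine. The pigment and eye sum was wholly above the controls with cocaine, and the low microglia sum with both drugs. With dopamine the interneuron sum, 771 to 960 TPM, was also wholly below the controls, while the cell cycle sum, 439 to 499 TPM, and the choroid plexus sum, 376 to 434 TPM, were wholly above them. The neuron sum with dopamine, 7130 to 7762 TPM, overlapped that of the controls. OLIG1, which was lower, was the only marker of any list called with dopamine. In bulk tissue, fewer cells of a type and less RNA per cell cannot be told apart, and the part of the cell mixture in the guidance gene values was not tested.

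With dopamine, 3 of the same 67 genes fell and none rose. These were NRP1, UNC5A and SEMA4G (4.48% of the set), where 0.148% of all genes tested fell, 0.555% rose and 0.703% were called in either direction. NRP1 was at 40.1, 37.9 and 50.2 TPM with dopamine, against 60.1, 58.1 and 58.5 TPM in the controls. Dopamine 3 was the highest of its group, still below each control, and the fold change was 0.732 (log2 -0.45, SE 0.08, adjusted p = 0.0165). UNC5A was at 15.3, 16.2 and 15.9 TPM with dopamine and at 22.2, 20.3 and 20.3 TPM in the controls (log2 -0.39, SE 0.08, adjusted p = 0.038). SEMA4G was at 24.7, 21.6 and 25.2 TPM with dopamine and at 30.5, 28.4 and 30.5 TPM in the controls (log2 -0.31, SE 0.07, adjusted p = 0.0383). In both genes the dopamine libraries lay wholly below the controls. The controls are the same 3 libraries that the cocaine comparison used, so the calls of these comparisons are not independent of each other.

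The median log2 fold change with dopamine was -0.11 over the 67 genes and -0.0028 over all genes, with 48 of the 67 negative. At an unadjusted p under 0.05 there were 18 guidance genes (26.9%), all 18 of them lower, against 14.0% of all genes in either direction. In TPM, 21 of the genes had every dopamine library below every control and 2 had every one above, against 13.4% and 10.3% of all genes. Among those not called, PLXNA3, a receptor of class 3 semaphorins, was at 64.5, 59.4 and 64.9 TPM with dopamine, against 73.8, 79.5 and 71.5 TPM in the controls (log2 -0.24, adjusted p = 0.109). PLXNB1, a receptor of SEMA4D, was at 41.3, 40.0 and 40.5 TPM with dopamine and at 47.8, 51.5 and 47.7 TPM in the controls (log2 -0.26, adjusted p = 0.131). SEMA4D itself was at 8.14, 7.82 and 8.14 TPM with dopamine and at 9.35, 9.61 and 9.10 TPM in the controls (log2 -0.21, adjusted p = 0.096). All 3 had groups that did not overlap, yet none passed the threshold.

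The 3 dopamine calls depended on single libraries. With dopamine 3 left out, NRP1 and SEMA4G were still called, and with dopamine 1, dopamine 2 or any of the 3 controls left out the number was 0. Over all genes, these removals left 7 to 100 calls. In a fit of only the dopamine and control libraries the number was 7, which were UNC5A, SEMA4G, PLXNB1, SEMA6D, PLXNA2, PLXNA3 and SEMA3E, and NRP1 was not among them (adjusted p = 0.054).

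**Figure D3:**
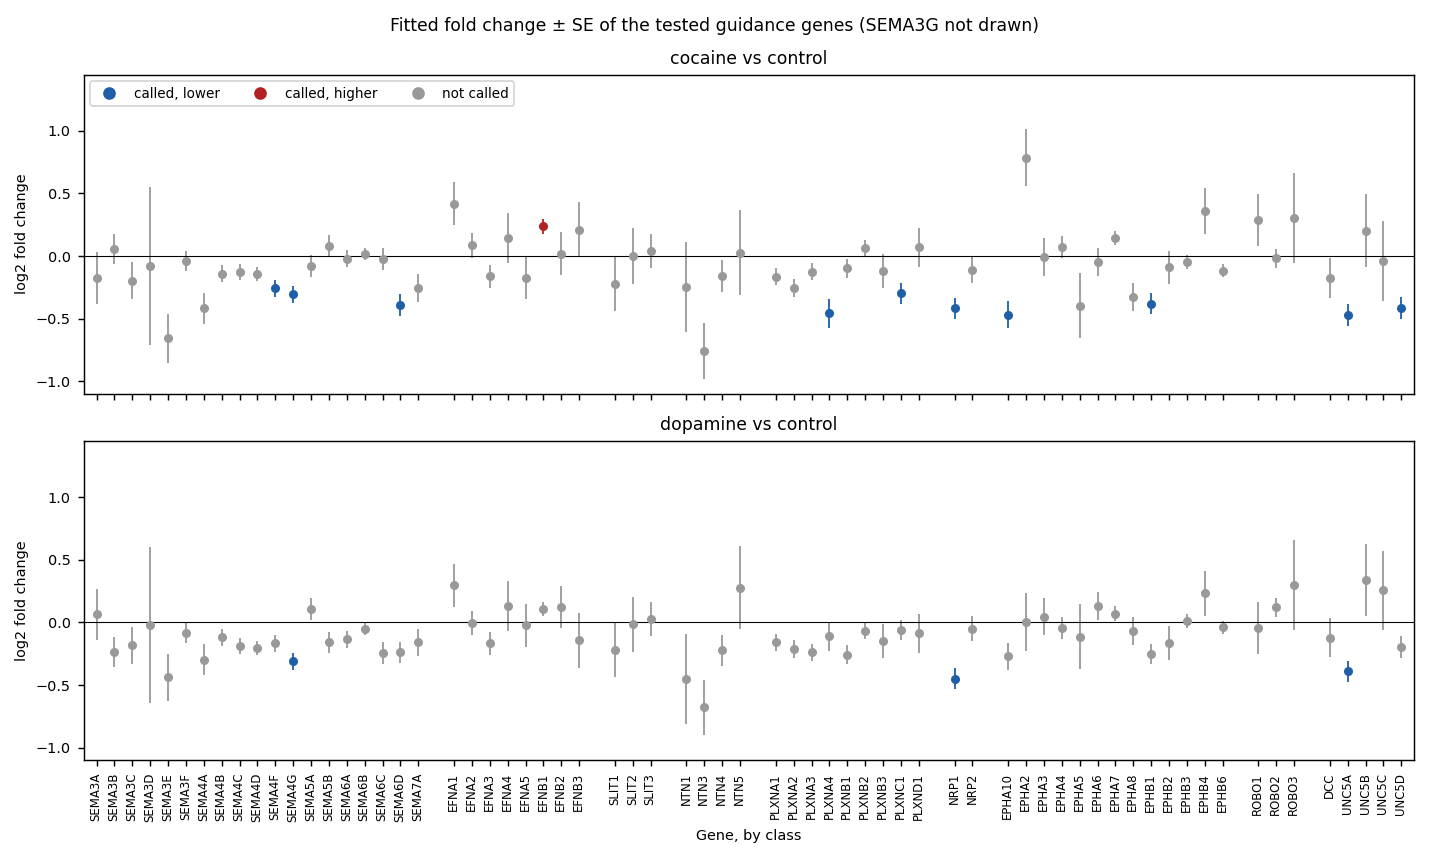
Log2 fold change ± SE from the fit for the tested guidance genes, cocaine against control above and dopamine against control below, in order of class, with SEMA3G left out for its few reads. Blue marks genes called lower, red genes called higher and grey genes not called; with cocaine 10 points are blue and 1 is red, and with dopamine 3 are blue.

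By class, most plexins and semaphorins had negative fold changes. All 9 plexins had a negative fold change with dopamine (median -0.15), though none was called, and 7 of 9 did with cocaine (median -0.13), with 2 called lower. All 6 class 4 semaphorins were negative with each drug, with 2 called lower with cocaine and 1 with dopamine. Over the 20 semaphorins, 16 were negative with cocaine and 17 with dopamine, and 3 were called lower with cocaine and 1 with dopamine. Summed over its 9 genes, plexin expression was 481 ± 18.9 TPM with cocaine, 492 ± 14.7 TPM with dopamine and 556 ± 13.6 TPM in the controls (SD, n = 3 each). The semaphorin sum was 756 ± 21.0 TPM with cocaine, 744 ± 31.9 TPM with dopamine and 838 ± 19.0 TPM in the controls (SD, n = 3 each).

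Among the ephrins, 6 of 8 had a positive fold change with cocaine (median 0.11), 1 was called higher and none lower. With dopamine 4 of 8 were positive and none was called. Of the 13 tested Eph receptors, 9 were negative with cocaine, with 2 called lower, and 7 with dopamine, with none called. Of the 5 netrin receptors, 2 were called lower with cocaine and 1 with dopamine. No Slit, Robo or netrin was called with either drug. SLIT1 was at 163 ± 27.8 TPM with cocaine, 167 ± 18.8 TPM with dopamine and 196 ± 30.8 TPM in the controls (SD, n = 3 each), and each drug's libraries overlapped the controls. DCC, the attractive netrin receptor, was at 44.1, 56.2 and 47.5 TPM with cocaine, at 45.7, 55.2 and 56.0 TPM with dopamine and at 63.2, 47.5 and 61.4 TPM in the controls. Control 2 lay among the libraries of each drug, so the groups overlapped. EPHB4, the receptor of EFNB2, was at 8.26, 8.85 and 9.36 TPM with cocaine, at 7.74, 8.64 and 8.40 TPM with dopamine and at 6.90, 7.06 and 7.30 TPM in the controls. Every drug library lay above every control here, yet neither adjusted p, 0.244 with cocaine and 0.614 with dopamine, passed.

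The sequence around the start sites was read for shared letters. Promoter windows of 300 bases, 250 before and 50 after the start, were taken from RefSeq (GRCh38.p14), and 59 of the 69 genes, 8 of the 11 called ones, had an entry. RefSeq's window stood at the gene's outermost start for 45 of the 59, and 6 of the 8; those of PLXNA4 and PLXNC1 lie at an inner start, 72218 and 114042 bases inside the gene. The windows of UNC5A (chr5:176810309-176810608, plus strand), SEMA4G (chr10:100969254-100969553, plus strand) and EFNB1 (chrX:68828771-68829070, plus strand) are shown, 5′ to 3′, because UNC5A and SEMA4G fell with both drugs and EFNB1 rose with cocaine. Capitals mark each GC box, GGGCGG on either strand.
UNC5A: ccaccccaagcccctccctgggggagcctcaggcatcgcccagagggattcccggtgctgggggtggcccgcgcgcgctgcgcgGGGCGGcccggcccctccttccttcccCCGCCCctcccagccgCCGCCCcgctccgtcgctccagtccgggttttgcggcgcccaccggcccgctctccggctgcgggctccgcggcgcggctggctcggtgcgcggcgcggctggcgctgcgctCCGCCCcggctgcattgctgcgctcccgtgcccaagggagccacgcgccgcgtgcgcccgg
SEMA4G: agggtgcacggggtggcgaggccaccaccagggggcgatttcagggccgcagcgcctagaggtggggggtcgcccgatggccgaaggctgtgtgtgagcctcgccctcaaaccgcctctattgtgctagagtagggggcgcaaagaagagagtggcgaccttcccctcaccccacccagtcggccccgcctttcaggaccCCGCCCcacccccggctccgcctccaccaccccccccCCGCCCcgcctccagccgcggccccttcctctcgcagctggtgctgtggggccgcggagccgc
EFNB1: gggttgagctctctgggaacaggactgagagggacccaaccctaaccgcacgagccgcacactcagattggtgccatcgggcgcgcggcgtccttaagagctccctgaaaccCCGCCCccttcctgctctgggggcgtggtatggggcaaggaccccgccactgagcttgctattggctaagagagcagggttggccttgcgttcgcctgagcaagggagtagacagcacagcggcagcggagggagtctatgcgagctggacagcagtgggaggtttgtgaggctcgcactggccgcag
These letters stood 4 times in the UNC5A window, 2 times in the SEMA4G window and 1 time in the EFNB1 window. Genes that fell and the gene that rose both carry them.

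Over the guidance genes, 45 of 59 windows (76.3%) held a GC box, against 45.0% of all 35116 windows, and 6 of the 8 called genes did. The GC content of the guidance windows was also higher, with a median of 65.7%, against 58.7% for all windows. These sets are unlike, since each guidance gene had 1 window. The set of all windows was not limited to 1 per gene or to protein-coding genes. The core of the antioxidant response element, searched, like every motif here, on both strands, was TGACNNNGC. It was in 8 of 59 windows (13.6%), against 13.3% of all windows, and the inner PLXNA4 window was the only one of a called gene among them. The AP-1 site TGANTCA was in 1 window (1.69%), the inner one of PLXNC1, against 7.71% of all. The cAMP response element TGACGTCA was in 2 (3.39%), those of EPHA2 and SEMA4C, against 1.85%. In the 45 windows at an outermost start, 36 (80.0%) held a GC box, 7 (15.6%) the antioxidant core, 1 the cAMP element and 0 the AP-1 site, and of the 6 called genes among them 5 held a GC box and 0 any of the other motifs. AP-1 and cAMP response elements are bound by factors that respond to neuronal activity, and the antioxidant element by NRF2. A match of letters is a description of the window and not a bound site.

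With the inhibitor present in both arms, no guidance gene was called for either drug. In cocaine + inhibitor against control + inhibitor 0 of 67 were called, where 0.0211% of all genes were, and in dopamine + inhibitor against control + inhibitor 0 of 67 were, where 0.00529% of all genes were. At an unadjusted p under 0.05 there were 19 guidance genes (28.4%) for cocaine + inhibitor and 5 (7.46%) for dopamine + inhibitor, against 16.65% and 5.58% of all genes. DESeq2 called 3 for cocaine + inhibitor, EFNB1, UNC5D and SEMA6D, and 0 for dopamine + inhibitor. UNC5D was at 13.7, 14.7 and 12.5 TPM in cocaine + inhibitor, against 16.0, 20.8 and 17.3 TPM in control + inhibitor (log2 -0.36, adjusted p = 0.136). EFNB1 was at 173, 182 and 169 TPM in cocaine + inhibitor and at 152, 145 and 152 TPM in control + inhibitor (log2 0.27, adjusted p = 0.104). Neither gene's groups overlapped. In TPM, 13 guidance genes lay wholly below and 4 wholly above for cocaine + inhibitor, against 12.1% and 4.99% of all genes, and 3 and 2 for dopamine + inhibitor, against 4.41% and 5.55%.

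Of the 3 genes that fell with dopamine alone, UNC5A and NRP1 overlapped their controls when the inhibitor was present and SEMA4G did not. UNC5A was at 20.1, 16.8 and 19.3 TPM in dopamine + inhibitor, against 18.1, 18.8 and 19.2 TPM in control + inhibitor (log2 0.01, SE 0.09), and the lowest library was a dopamine + inhibitor one and so was the highest. NRP1 was at 50.0, 50.3 and 51.7 TPM in dopamine + inhibitor and at 55.5, 56.4 and 49.3 TPM in control + inhibitor (log2 -0.08, SE 0.08), with control + inhibitor 3 below all 3 dopamine + inhibitor libraries. SEMA4G was at 24.6, 25.6 and 25.1 TPM in dopamine + inhibitor, wholly below the 27.2, 28.5 and 26.0 TPM of control + inhibitor (log2 -0.12, adjusted p = 0.926). The test of the difference itself, the dopamine by inhibitor interaction, gave 0.40 (SE 0.12) on the log2 scale for UNC5A, 0.37 (SE 0.12) for NRP1 and 0.19 (SE 0.10) for SEMA4G. None passed, with adjusted p of 0.446, 0.465 and 0.62 over all genes. Of the 67, 0 passed in this interaction, where 0.00529% of all genes did, and 13 (19.4%) had an unadjusted p under 0.05, 11 of them positive, against 8.35% of all genes.

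No guidance gene passed in the remaining comparisons of the inhibitor. In the cocaine by inhibitor interaction 0 guidance genes were called, with 0% of all genes, and 2, EPHA7 and SEMA4G, had an unadjusted p under 0.05 (2.99%, against 5.26% of all genes). For control + inhibitor against control 0 were called, with 0% of all genes, and 9 had an unadjusted p under 0.05 (13.4%, against 5.72% of all genes). For cocaine + inhibitor against cocaine 0 were called, with 0% of all genes, and 1 had such a p (1.49%, against 3.21%). For dopamine + inhibitor against dopamine 0 were called, with 0.00529% of all genes, and 7 had such a p, all 7 higher (10.4%, against 8.67%). DESeq2 called 0 guidance genes in each of these and in the dopamine interaction. UNC5A was at 18.1 to 19.2 TPM in control + inhibitor, wholly below the 20.3 to 22.2 TPM of the controls (log2 -0.17, adjusted p = 0.877), and NRP1 at 49.3 to 56.4 TPM in control + inhibitor, below the 58.1 to 60.1 TPM of the controls (log2 -0.14, adjusted p = 0.897). Between the dopamine groups, SEMA3E was at 7.60, 6.00 and 7.11 TPM in dopamine + inhibitor, against 5.03, 4.22 and 4.95 TPM with dopamine alone, without overlap (log2 0.52, SE 0.19, adjusted p = 0.484). Both inhibitor-only and drug comparisons use the same 3 control libraries.

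Libraries cocaine + inhibitor 1 and 2 both stood apart from their group, with 12 and 10 guidance genes far from its other libraries. Without cocaine + inhibitor 2, 13 guidance genes (19.4%) were called in cocaine + inhibitor against control + inhibitor, 8 lower and 5 higher. In that fit 6.65% of all genes tested were called. The library left out had interneuron and cell cycle marker sums within the range of control + inhibitor. Without any 1 of the other 5 libraries, cocaine + inhibitor 1 among them, 0 guidance genes were called. The 8 lower were SEMA6D, PLXNA4, PLXNC1, SEMA5A, UNC5A, EPHA5, UNC5D and EPHA10, and the 5 higher were SEMA6C, EPHA2, EFNB1, SEMA5B and ROBO1. PLXNA4 was at 32.8 and 36.9 TPM in cocaine + inhibitor 1 and 3 and at 48.2 TPM in cocaine + inhibitor 2, against 49.7, 56.9 and 46.2 TPM in control + inhibitor. Its log2 fold change was -0.34 with all libraries and -0.49 (SE 0.10, adjusted p = 0.0175) without cocaine + inhibitor 2. SEMA6D was at 41.5 and 49.6 TPM in cocaine + inhibitor 1 and 3 and at 60.1 TPM in cocaine + inhibitor 2, against 62.1, 67.0 and 65.3 TPM in control + inhibitor, and its log2 fold change was -0.32 with all libraries and -0.45 without that one (SE 0.07, adjusted p = 0.00779). NRP1 and SEMA4G were not called even then, with adjusted p of 0.209 and 0.59.

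**Figure D4:**
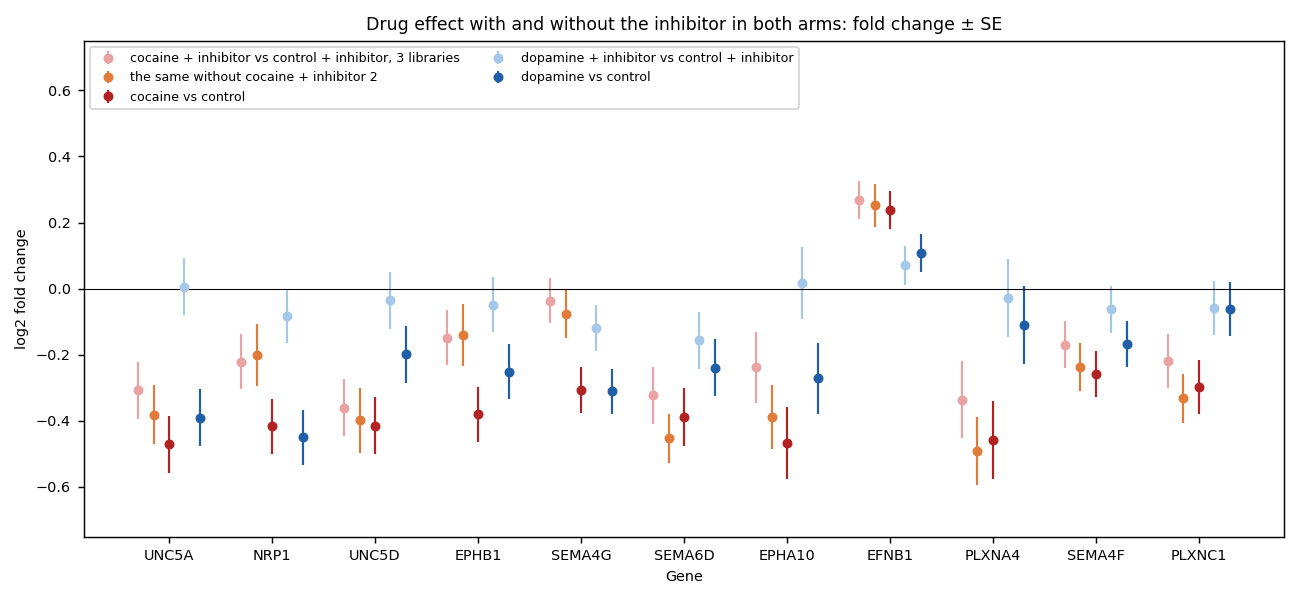
Log2 fold change ± SE of the 11 genes called with cocaine, in 5 fits: cocaine + inhibitor against control + inhibitor with all 3 libraries and without cocaine + inhibitor 2, cocaine against control, dopamine + inhibitor against control + inhibitor, and dopamine against control. UNC5A lies at -0.31, -0.38, -0.47, 0.01 and -0.39 in that order, and EFNB1 is positive in all 5.

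Several guidance genes differed widely between libraries of the same group, some of them through a single library. SEMA3D, a secreted semaphorin, was at 16.5 TPM in cocaine + inhibitor 2 and between 1.89 and 3.28 TPM in the other 17 libraries. The same library held the highest EPHA5 (61.1 TPM), UNC5C (19.1 TPM) and ROBO3 (81.0 TPM) of the set, where the other libraries of its group had 26.0 and 24.0 TPM, 7.97 and 8.34 TPM, and 27.2 and 35.5 TPM. Markers differed as well: 13 interneuron and ventral forebrain markers summed to 1104 TPM in cocaine + inhibitor 2, against 649 and 672 TPM in cocaine + inhibitor 1 and 3. The sum of 14 cell cycle genes was 450 TPM, against 835 and 604 TPM. In control + inhibitor these sums were 840 to 1223 TPM and 342 to 454 TPM, and cocaine + inhibitor 2 lay within both ranges. Cocaine + inhibitor 1 had the highest cell cycle sum of all libraries. NTN1, which floor plate cells make in the embryo, was at 146 TPM in control + inhibitor 1 and 128 TPM in cocaine + inhibitor 3, and at no more than 87.0 TPM elsewhere. The summed level of 10 floor plate and roof plate markers was highest in these same libraries, at 306 and 257 TPM, against 88.4 to 178 TPM in the others. SPON1 was the largest part of these sums, at 60.2 to 227 TPM over all libraries. FOXA2, SHH and CORIN reached at most 4.24, 4.57 and 2.40 TPM in any library. The part of either cell mixture in these values was not tested.

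**Figure D5:**
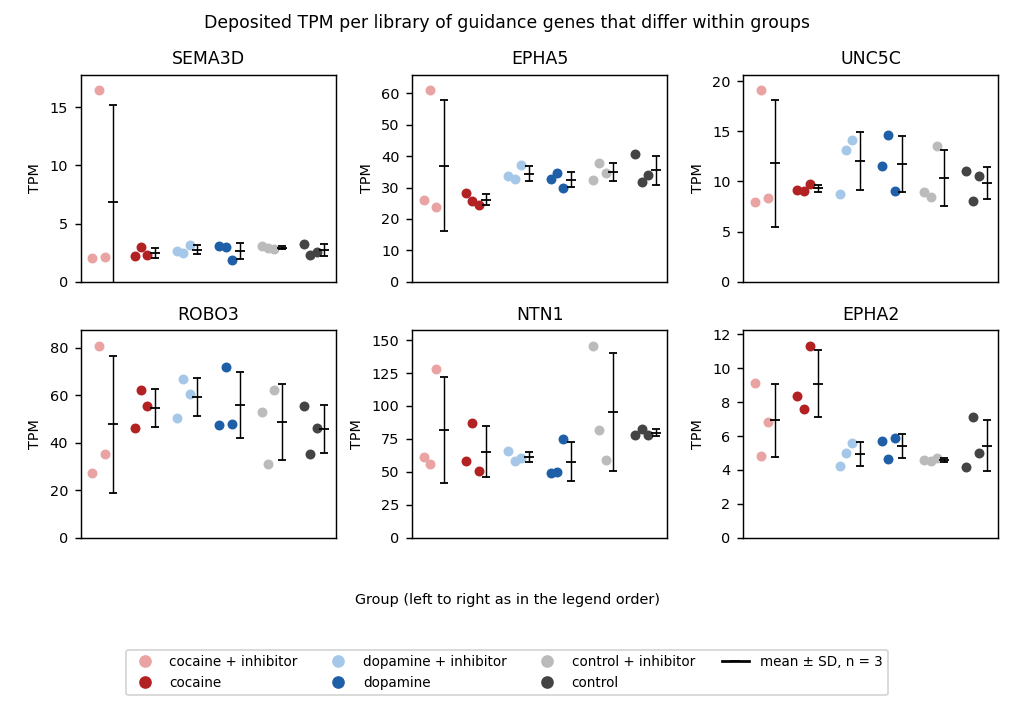
Deposited TPM per library of SEMA3D, EPHA5, UNC5C, ROBO3, NTN1 and EPHA2, each panel from 0, with points for libraries and bars for the mean ± SD of 3. Cocaine + inhibitor 2 is the highest library for SEMA3D, EPHA5, UNC5C and ROBO3, at 16.5 TPM for SEMA3D.

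The drugs were also compared with each other. In cocaine against dopamine 0 of 67 guidance genes were called, with 0% of all genes, and 10 had an unadjusted p under 0.05, 5 lower and 5 higher with cocaine (14.9%, against 11.76% of all genes). DESeq2 called 0 of the 67. PLXNA4 was at 39.8, 33.6 and 31.1 TPM with cocaine, against 44.2, 43.8 and 47.7 TPM with dopamine (log2 -0.35, SE 0.12, adjusted p = 0.333), and the groups did not overlap. EPHA2 was at 8.36, 7.57 and 11.3 TPM with cocaine and at 5.71, 4.62 and 5.89 TPM with dopamine (log2 0.78, SE 0.23, adjusted p = 0.303), again without overlap.

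Genes that act beside or below these receptors were read from a list of 56, of which 55 were tested. With cocaine 8 fell and 1 rose, and with dopamine 0 were called, against 2.59% lower and 1.73% higher of all genes with cocaine and 0.703% called with dopamine. With cocaine 24 of the 55 were positive (median -0.10), and with dopamine 14 were (median -0.08). Among the genes that fell were MICAL3, of a family of actin oxidases that plexins use in flies; NGEF, the exchange factor ephexin that Eph receptors use; DPYSL2, a collapsin response mediator; the adhesion gene CHL1; and FLRT2, a ligand of UNC5 receptors. MICAL3 averaged 32.4 ± 2.68 TPM with cocaine and 42.0 ± 1.2 TPM in the controls (SD, n = 3 each; log2 -0.33, adjusted p = 0.0198). DPYSL2 averaged 611 ± 59.4 TPM with cocaine and 769 ± 43.3 TPM in the controls (SD, n = 3 each; log2 -0.29, adjusted p = 0.033). FLRT2 averaged 7.25 ± 1.04 TPM with cocaine and 11.4 ± 0.445 TPM in the controls (SD, n = 3 each; log2 -0.60, adjusted p = 0.0481). RHOA, the small GTPase that acts in growth cone collapse, rose to 423 ± 12.9 TPM with cocaine, against 378 ± 2.84 TPM in the controls (SD, n = 3 each; log2 0.21, adjusted p = 0.0427).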

How the data were processed

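PolyA RNA was measured in 18 libraries of H9 organoids, 3 in each of 6 treatment groups taken from the labels. The authors deposited raw read counts per gene, as whole numbers without normalization, and TPM values per gene and library. A further 5 deposited tables give the authors' comparisons, with a log2 fold change and an adjusted p-value, and list only changes of at least 1 log2 unit; 0 of the 69 guidance genes are in them. The submitters' processing notes name the build GRCh38 (hg38). Aligner, counting tool, strand setting and annotation were not given in the sources used here. The design text speaks of a second cell line, which was not analysed here.

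Counts were analysed with edgeR 4.0.16 in R 4.3.3. TMM factors were 0.975 to 1.016, and 18913 genes passed filterByExpr with a minimum count of 10. A model with a mean for each group, fitted to the 18 libraries together, gave 10 contrasts by the robust, two-sided quasi-likelihood F-test. P-values were adjusted by Benjamini-Hochberg over all genes tested. Levels in the text are the deposited TPM values, and fold changes and standard errors come from the fit. Within groups, pairs of libraries differed by a chi-square per gene of 3.54 to 21.7 over genes with at least 20 reads, so each was counted once. Gene positions are from RefSeq GRCh38.p14.

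The members and lists were chosen with earlier results of these data known. Genes were named by rule: every member called in any contrast, the highest of each family by mean TPM, the 10 with the smallest p with cocaine and with dopamine, the 5 that varied most within groups, and up to 8 called genes of the list of other guidance genes, of which not all are reported here. FLRT2, SEMA3E, SEMA4A, EPHA2, EPHA5, UNC5C, ROBO2, NRP2, the genes called only in alternative fits, other nominally significant ones and the marker genes were named after their values were seen. Alternatives were DESeq2 1.42.0, median-ratio scaling, no low-count filter, a fit of only the groups compared, and leaving out each library in turn.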

Additional observations from a re-analysis of the deposited data

How the results depend on the processing

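With dopamine against control, 3 guidance genes were called, with 7 in a fit of only those groups and 5 by DESeq2, and 0 to 2 when a library was left out. With cocaine against control, 11 were called, with 10 to 15 under the other 4 settings and 0 to 12 when a library was left out. For cocaine + inhibitor against control + inhibitor the number was 0, with 3 by DESeq2 and 0 to 13 when a library was left out. In the other 7 contrasts it was 0 under every setting run. The 17 genes followed through the 10 alternatives of each drug were those called or among the 10 with the smallest p with either drug. None changed sign, which their choice from these same data made likely beforehand.

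Over all genes, DESeq2 called 486 with dopamine and 1648 with cocaine, a fit of only the groups compared 540 and 1583, and fits with a library left out 7 to 100 and 0 to 1121. For cocaine + inhibitor against control + inhibitor the count was 309 by DESeq2, 0 in a fit of only those groups, 9 without the filter and 2 to 1276 with a library left out. For dopamine + inhibitor against control + inhibitor it was 6 by DESeq2 and 0 with any library left out. For dopamine + inhibitor against dopamine it was 36 by DESeq2, 3 without the filter, 3 in a fit of only those groups and 0 to 1 with a library left out. DESeq2 called 4 for control + inhibitor against control, 67 for cocaine against dopamine, 18 for the dopamine interaction and 1 for the cocaine interaction. The cause of these differences was not tested. The 3 libraries per group limit the precision, and the adjusted p-values of the guidance genes called by edgeR, 0.0165 to 0.047, lie close to the threshold of 0.05.

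No paired analysis was possible because the replicate numbers only give deposit order, and the labels pair no libraries across groups.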
